A study of Mus musculus with 6 samples.

Results

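The mitochondrial genome of the mouse is a small circle whose genes are copied by the organelle's own RNA polymerase as long transcripts, one from each strand, and these are then cut into separate RNAs at the tRNAs that punctuate them. It encodes the rRNAs of the mitochondrial ribosome, the tRNAs that serve it and a few hydrophobic subunits of the respiratory chain, and every other protein of the organelle is made from nuclear genes. Acinar cells of the salivary gland secrete protein and fluid, work that consumes the ATP made by this chain.

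The mitochondrially encoded transcripts were taken as every row of the unfiltered count table whose symbol starts with mt-. There were 37 such rows among 43280, namely 2 rRNAs, 13 mRNAs and 22 tRNAs, and all 37 matched a gene of the mitochondrial chromosome in the GENCODE M21 annotation of GRCm38. Of these, 9 lie on the light strand, mt-Nd6 and 8 tRNAs, and the other 28 on the heavy strand.

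The RNA came from the submandibular glands (SMGs) of adult female mice on a C57BL/6 background, and 3 libraries labelled WT were set against 3 labelled DKO, numbered 1, 4 and 5 in each group. In DKO mice, per the study, exon 1 of Hs3st3a1 was disrupted with a zinc finger nuclease in animals whose Hs3st3b1 already carried a LacZ cassette, so that both heparan sulfate 3-O-sulfotransferases are inactivated by germ-line alleles and not in a chosen cell type. The WT mice were littermates. The question put to these rows is whether their shares of the counts and the ratios among them differed between the groups.

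Total counts ranged from 23674258 to 29611975 per library. Counts of Hs3st3a1 (8 to 15) and Hs3st3b1 (120 to 261) overlapped between the groups, with adjusted p-values of 0.947 and 0.976 in DESeq2. The counts thus do not separate the groups, and since the tables do not show where in the genes the reads fell, they give no check of the labels. By qPCR, the study reports no expression of either gene in adult DKO glands of both sexes, which these counts do not show. Groups are named below as the libraries were labelled. The summed level of 10 acinar markers was 380692 to 405253 CPM (counts per 1000000 counts of the library) in WT and 393615 to 418228 CPM in DKO, while 6 skeletal muscle markers summed to 1.83 to 2.15 and 1.52 to 1.70 CPM with Myh4 at 0. Spt1 alone took 34.9% to 39.7% of the counts and so made up most of the acinar sum. In DESeq2 the 10 acinar markers had log2 fold changes from -4.45 to 1.23, with 7 above 0 and 3 below, against 50.2% of all rows above 0. At an adjusted p under 0.05, 2 of them were higher in DKO and 0 lower, against 2.9% of all rows in either direction. The filters left 2 of the 10 without an adjusted p. On the scale of total counts, the median log2 fold change of all rows in DESeq2 was -0.23. Other marker lists are given on that scale. Without overlap, and in WT and DKO respectively, they spanned 385 to 469 and 187 to 275 CPM for myoepithelial cells, 85.2 to 96.0 and 63.2 to 73.5 CPM for ionocytes, 59.4 to 111 and 33.9 to 54.7 CPM for macrophages, 1.74 to 10.3 and 0.387 to 0.566 CPM for T cells, and 35.2 to 67.2 and 91.2 to 118 CPM for erythroid cells. With overlap, they spanned 10192 to 12696 and 7721 to 10631 CPM for duct cells, 421 to 643 and 270 to 444 CPM for fibroblasts, 61.5 to 256 and 18.1 to 105 CPM for B and plasma cells, and 52.7 to 57.8 and 54.4 to 62.8 CPM for endothelial cells. At an adjusted p under 0.05 in DESeq2, 4 of the 13 duct markers were lower in DKO and 0 higher, against 2.9% of all rows in either direction. Of the markers tested, 6 of 7 myoepithelial, 5 of 6 T cell and 2 of 4 macrophage markers were also lower. So were 2 of 6 fibroblast and 2 of 6 B and plasma cell markers. Of the erythroid markers, 4 of 5 were higher, while 0 of 4 ionocyte and 0 of 4 endothelial markers passed. In RNA of whole glands, fewer cells of a type and less RNA per cell cannot be told apart, and the part of these shifts in the values below was not tested.

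The counts fell on a few of the 37 rows. The 9 rows with at least 100 counts in every library were both rRNAs and 7 mRNAs, mt-Co1, mt-Cytb, mt-Nd1, mt-Nd2, mt-Nd4, mt-Nd5 and mt-Nd6. In 10 rows, 9 tRNAs and mt-Nd4l, no library held a count, which with 3 counts as the limit allows a level of up to 0.127 CPM in the shallowest library and 0.101 CPM in the deepest. This limit covers counting error only.

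The mRNA rows without appreciable counts lay side by side. They were mt-Co2, mt-Atp8, mt-Atp6, mt-Co3, mt-Nd3 and mt-Nd4l, which encode subunits of cytochrome c oxidase (complex IV), ATP synthase (complex V) and NADH dehydrogenase (complex I). The 6 rows held 344 counts over all 6 libraries, 0.0305% of the mRNA counts, although they make up 26.3% of the length of the 13 mRNA rows. Between 0 and 62 counts fell on any of them in any library. mt-Co3, the largest of them by counts, had 6, 20 and 23 counts in WT and 19, 62 and 52 in DKO.

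That stretch is also present in the nucleus. In the annotation, 7 neighbouring unprocessed pseudogenes on the minus strand of chromosome 1, chr1:24611535-24616197 (GRCm38), matched mitochondrial positions 6390 to 11042 in the same order, with 2 mismatches in 4140 matched bases. The copies begin in the 3′ part of mt-Co1 (Gm29216, 483 bases), run through mt-Co2 (Gm28661), mt-Atp6 (Gm10925), mt-Co3 (Gm28437), mt-Nd3 (Gm28438) and mt-Nd4l (Gm10222), and end in mt-Nd4 (Gm28439, its first 876 of 1378 bases). A short part of mt-Co2, of mt-Co1 and of mt-Nd3 is shown beside its copy, since a read from such a sequence fits both places. The lines give bases 301 to 360 of mt-Co2, 1063 to 1122 of mt-Co1 and 1 to 60 of mt-Nd3, 5′ to 3′ along the transcript, with the base that differs in capitals.
mt-Co2: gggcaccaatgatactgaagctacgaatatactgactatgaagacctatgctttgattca
Gm28661: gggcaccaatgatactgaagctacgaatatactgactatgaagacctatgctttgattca
mt-Co1: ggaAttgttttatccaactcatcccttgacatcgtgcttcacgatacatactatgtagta
Gm29216: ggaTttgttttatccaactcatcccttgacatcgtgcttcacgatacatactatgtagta
mt-Nd3: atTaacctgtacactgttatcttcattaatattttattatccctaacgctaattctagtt
Gm28438: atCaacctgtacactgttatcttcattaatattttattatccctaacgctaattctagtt

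The only differences found were A1066T in mt-Co1 and T3C in mt-Nd3, counted from the first base of the mitochondrial transcript, with the mitochondrial base named before the position. Read without a break, the identical run was 783 bases for mt-Co3, 681 for mt-Co2, 678 for mt-Atp6, 342 for mt-Nd3 and 294 for mt-Nd4l. mt-Atp8 shares its last 43 bases with mt-Atp6 and so with the copy Gm10925. The rest of mt-Atp8 and 5 tRNAs (mt-Ts1, mt-Td, mt-Tk, mt-Tg and mt-Tr) also lie inside the stretch but between the annotated copies, and the nuclear bases there were not read here. These 5 tRNA rows held 1 count in all.

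Outside the stretch the nuclear copies were more diverged. There were 9 further pseudogenes, including 3 on chromosome 2 and 3 on chromosome 4, with 90.7% to 97.6% identity and unbroken identical runs of 39 to 173 bases. The rows mt-Nd6 and mt-Cytb, which have such copies and were counted, are shown over bases 241 to 300 and 481 to 540 of the transcripts, with the 7 and 5 differing bases in capitals.
mt-Nd6: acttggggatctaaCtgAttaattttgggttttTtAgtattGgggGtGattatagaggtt
Gm11408: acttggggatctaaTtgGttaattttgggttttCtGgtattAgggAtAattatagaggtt
mt-Cytb: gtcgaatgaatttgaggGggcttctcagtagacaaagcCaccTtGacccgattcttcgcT
Gm11410: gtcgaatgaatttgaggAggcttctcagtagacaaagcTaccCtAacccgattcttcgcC

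Among the 9 abundant rows, the longest run shared with an annotated nuclear transcript was 876 bases for mt-Nd4 and 479 for mt-Co1, the rows that cross the edges of the stretch. It was 129 bases for mt-Nd2, 95 for mt-Nd5, 65 for mt-Rnr2, 47 for mt-Cytb and 39 for mt-Nd6, and no match was found for mt-Nd1 or mt-Rnr1. How the authors treated reads that align in several places is not given in the sources used here, so the part of these copies in the low counts was not tested. The values of the 11 rows inside the stretch are therefore uncertain, and those of mt-Co1 and mt-Nd4 may cover only the part of each row outside it, 1062 and 502 bases.

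**Figure D1:**
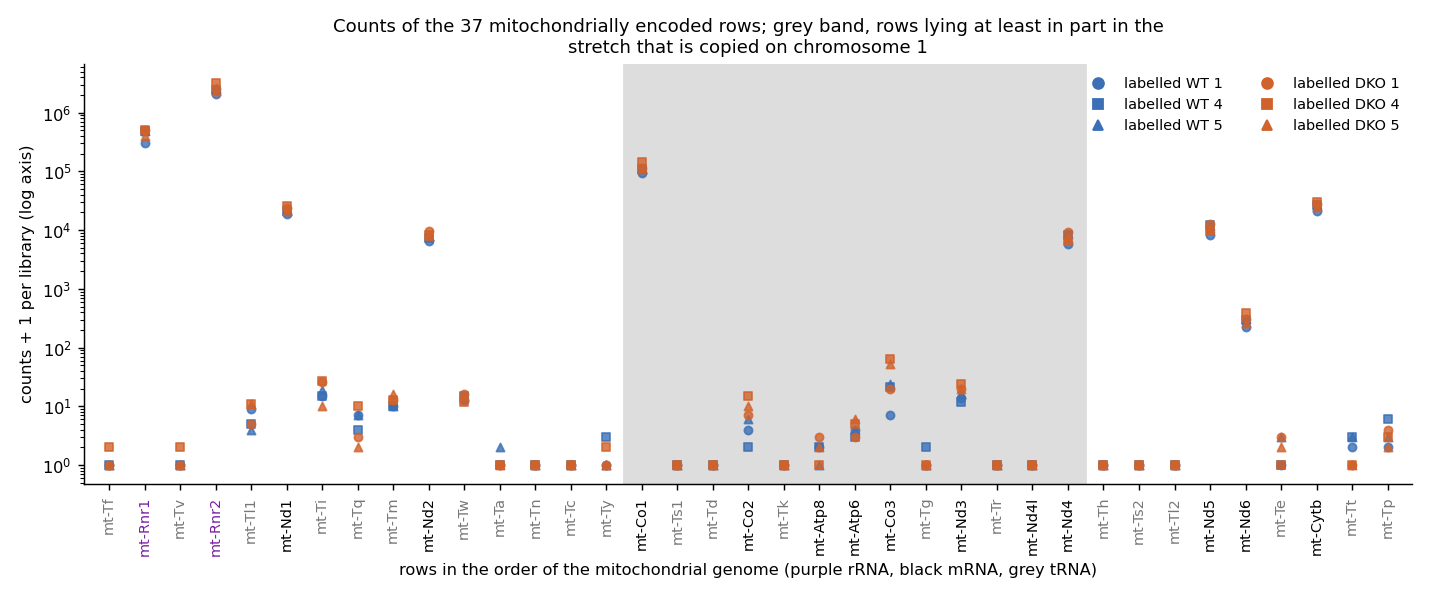
Counts plus 1 on a log axis for each of the 37 rows, in the order of the mitochondrial genome, with a point for each of the 6 libraries; grey marks rows that lie wholly or in part in the stretch copied on chromosome 1. Inside the grey band mt-Co1 and mt-Nd4 at its edges held at least 5866 counts in every library, and the rows between them held at most 62 in any library.

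Most mitochondrial counts were rRNA. mt-Rnr2 (ENSMUSG00000064339, chrM:1094-2675, plus strand), the rRNA of the large subunit, held 2102402, 2472527 and 2593672 counts in WT and 2523242, 3208305 and 2292627 in DKO. It was the second most abundant of all rows in every library. mt-Rnr1 (chrM:70-1024), the rRNA of the small subunit, held 308625, 481549 and 494367 counts in WT and 503286, 507177 and 404541 in DKO. In counts, WT 1, the shallowest library, was lowest for both, and the groups overlapped. As a share of all counts, mt-Rnr2 was lowest in DKO 5 (8.87%, against 8.88% in WT 1).

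Taken over the 37 rows, the mitochondrial share of all counts was 10.8%, 11.6% and 12.0% in WT and 11.4%, 13.3% and 11.1% in DKO. The means were 11.5% ± 0.586 in WT and 11.9% ± 1.19 in DKO (SD, n = 3), and DKO 4 alone lay above all 3 WT libraries. The rRNA rows made up 10.8% ± 0.571 of the counts in WT and 11.2% ± 1.15 in DKO (SD, n = 3), or 93.7% to 94.4% of the mitochondrial counts in every library.

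The mRNA rows made up 0.652%, 0.694% and 0.676% of all counts in WT and 0.690%, 0.762% and 0.698% in DKO, with means of 0.674% ± 0.0208 and 0.717% ± 0.0397 (SD, n = 3). DKO 4 and DKO 5 lay above every WT library and DKO 1 lay below WT 4, so the groups overlapped.

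Few counts came from tRNA rows. Summed over 22 rows they were 51, 54 and 56 counts in WT and 63, 73 and 51 in DKO, about 2.07 ± 0.0779 and 2.22 ± 0.246 CPM (SD, n = 3). Of 348 such counts in all, mt-Ti (tRNA for isoleucine) held 106, mt-Tw (tryptophan) 79, mt-Tm (methionine) 66, mt-Tl1 (leucine) 39 and mt-Tq (glutamine) 27. mt-Ti, mt-Tq and mt-Tm lie between mt-Nd1 and mt-Nd2, mt-Tw follows mt-Nd2, and mt-Tl1 lies between mt-Rnr2 and mt-Nd1. Other tRNA rows beside abundant ones held almost no counts, with 1 for mt-Tv between the rRNAs, 1 for mt-Tf beside mt-Rnr1 and 0 for mt-Th beside mt-Nd4. mt-Ti and mt-Tw even share bases with a neighbour, and those shared bases are in capitals below, beside mt-Ts1, which shares bases with mt-Co1 on the other strand and held no count.
mt-Ti: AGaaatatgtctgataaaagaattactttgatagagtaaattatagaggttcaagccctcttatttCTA
mt-Tw: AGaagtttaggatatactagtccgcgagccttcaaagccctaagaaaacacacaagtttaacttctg
mt-Ts1: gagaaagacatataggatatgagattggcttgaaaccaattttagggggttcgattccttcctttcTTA

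Reads over the bases that mt-Ti shares with mt-Nd1 and mt-Tw with mt-Nd2, on the same strand, could belong to either row. Because the libraries were unstranded, so could reads over bases shared across strands, by mt-Ti with mt-Tq and by mt-Ts1 with mt-Co1. The bases are those of GENCODE M21 transcripts, at chrM:3706-3774 for mt-Ti, chrM:4950-5016 for mt-Tw and chrM:6870-6938, minus strand, for mt-Ts1.

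Ratios inside a library do not depend on how libraries are scaled to each other. Each mRNA count was matched by 15.6, 15.8 and 16.7 rRNA counts in WT and by 15.5, 16.5 and 15.0 in DKO, and the ranges overlapped. The means were 16.04 ± 0.602 and 15.6 ± 0.757 (SD, n = 3). For every 1000 mRNA counts there were 0.307 ± 0.0211 tRNA counts in WT and 0.310 ± 0.0232 in DKO (SD, n = 3). For 3 libraries against 3 the smallest two-sided p of an exact permutation test is 0.1, so none of these ratios was tested.

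The ratio of the rRNAs to each other varied more between libraries than between groups. There were 6.81, 5.13 and 5.25 counts of mt-Rnr2 for each count of mt-Rnr1 in WT, and 5.01, 6.33 and 5.67 in DKO. WT 1 and DKO 4 were the highest, and the group means were 5.73 ± 0.938 and 5.67 ± 0.656 (SD, n = 3).

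**Figure D2:**
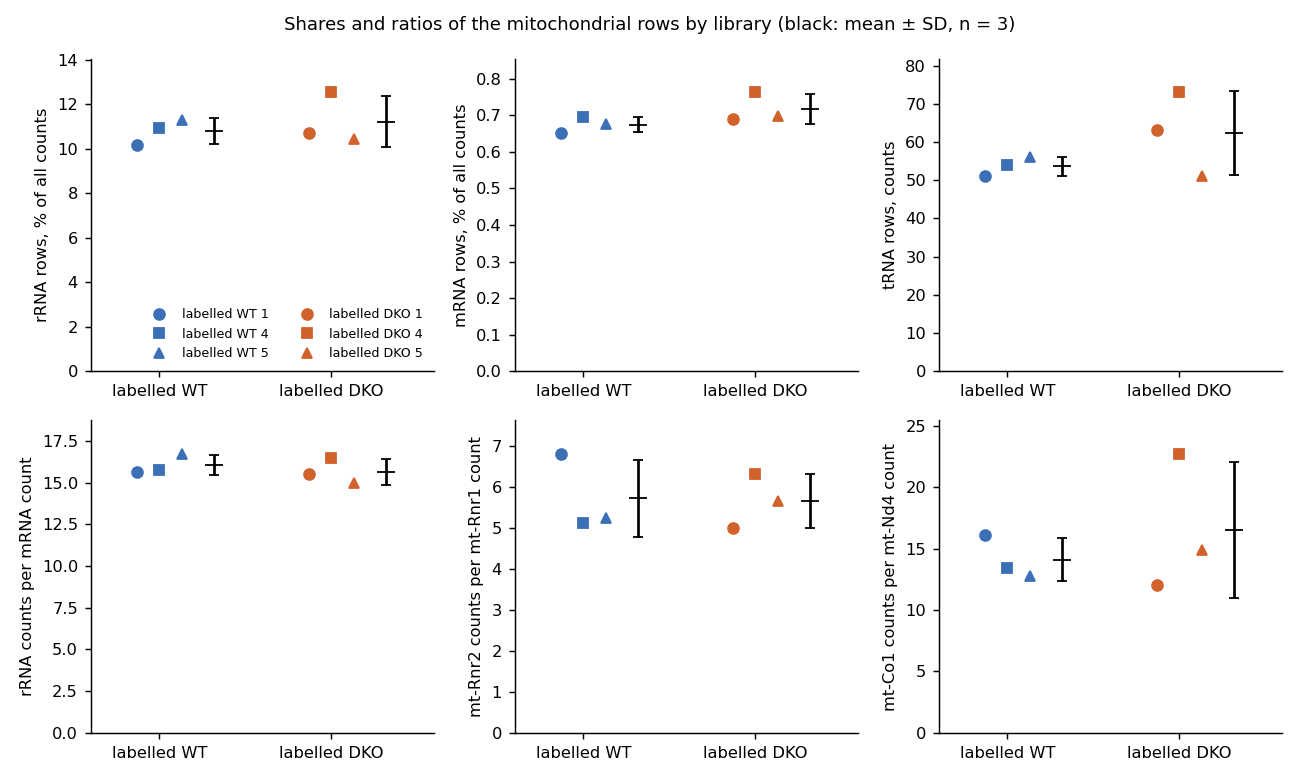
Shares of all counts, tRNA counts and ratios within each library (vertical axes from 0), with a point for each library and the mean ± SD of 3 libraries in black. The groups overlap in all 6 panels, and DKO 4 is highest for the rRNA share (12.5%), the mRNA share (0.762%) and the ratio of mt-Co1 to mt-Nd4 (22.7).

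The shares depend on a few secretory rows that fill the denominator. Spt1, which RefSeq lists under the name Mucl2 and which encodes an abundant salivary protein, took 34.9% to 39.7% of the counts, and Mucl1 took at most 0.00102% in WT but 2.36% to 2.86% in DKO. When the 12 nuclear rows that ranked among the 10 most abundant nuclear rows of any library were left out of the denominator, the mitochondrial share was 21.5%, 24.5% and 23.6% in WT and 24.9%, 30.0% and 26.1% in DKO, without overlap. That set of rows includes Mucl1, which is abundant only in DKO, so leaving it out raises the DKO shares alone. With Mucl1 kept and the other 11 rows left out, the shares were 21.5%, 24.5% and 23.6% in WT and 23.7%, 28.2% and 24.5% in DKO, and the groups overlapped (means 23.2% ± 1.51 and 25.4% ± 2.40, SD, n = 3). They also overlapped without the 7 nuclear rows that were among the 10 most abundant in every library, at 21.9% ± 1.57 and 24.2% ± 2.43 (SD, n = 3). Without Spt1 alone, the means were 18.0% ± 1.10 and 19.5% ± 2.12 (SD, n = 3) and the groups overlapped.

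**Figure D3:**
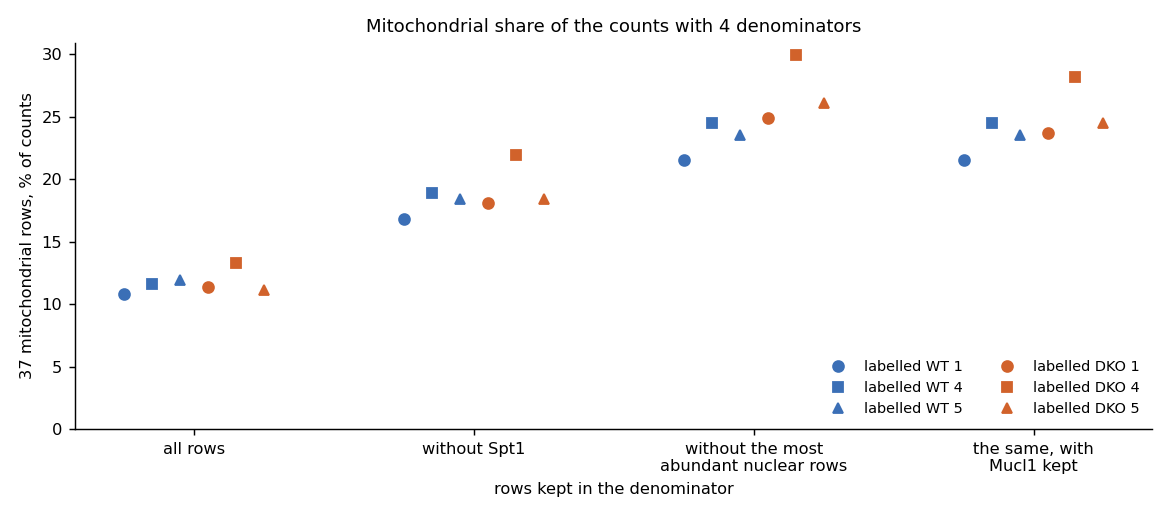
Share of the counts taken by the 37 mitochondrial rows (vertical axis, percent, from 0) with all rows, without Spt1, without 12 abundant nuclear rows and without 11 of these but with Mucl1 kept in the denominator, with a point for each library. Among these denominators, the groups separate for this share only where Mucl1, abundant in DKO alone, is among the rows left out (DKO 24.9% to 30.0%). With it kept DKO 1 lies at 23.7%, inside the WT range of 21.5% to 24.5%.

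Levels of different rows were compared per kilobase of the row, in CPM per kilobase averaged over the 6 libraries. mt-Rnr2 stood at 59176 ± 4803 and mt-Rnr1 at 17376 ± 2048 (SD, n = 6), a ratio of 3.41, and mt-Rnr2 exceeded mt-Co1, the highest mRNA, by 21.9 times. The rRNA genes lie next to the promoter of the heavy strand, and mt-Rnr1 precedes mt-Rnr2 on the same transcript.

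Among the mRNAs, mt-Co1, the catalytic subunit of cytochrome c oxidase, came first at 2708 ± 237 CPM per kilobase (SD, n = 6). mt-Cytb (cytochrome b of complex III) followed at 850 ± 42.9 and mt-Nd1 (complex I) at 844 ± 33.6, a difference smaller than their spread, and their ratio within a library lay on both sides of 1 (0.942 to 1.06). The complex I subunits mt-Nd2, mt-Nd5 and mt-Nd4 came next at 281 ± 24.3, 221 ± 28.1 and 205 ± 31.1. Within a library, mt-Nd2 was 1.06 to 1.48 times mt-Nd5, and mt-Nd5 1.03 to 1.16 times mt-Nd4, above 1 in all 6 libraries for each, though the ranges over libraries of mt-Nd5 and mt-Nd4 overlapped. Counted over only their bases outside the stretch copied on chromosome 1, mt-Co1 would stand at 3940 and mt-Nd4 at 562 CPM per kilobase, which moves mt-Nd4 above mt-Nd2.

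mt-Nd6 (chrM:13552-14070), the complex I subunit that is the lone mRNA of the light strand, was the lowest of the abundant rows at 21.0 ± 2.32 CPM per kilobase (SD, n = 6). mt-Nd5, whose end it overlaps by 14 bases on the opposite strand, was 10.5 times higher per kilobase, and mt-Co1 129 times higher. mt-Nd6 held 220, 299 and 308 counts in WT and 300, 381 and 263 in DKO, or 0.156% ± 0.0126 and 0.156% ± 0.0116 of the mRNA counts (SD, n = 3). Since strand was not kept, reads over the 14 shared bases cannot be told apart.

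Next, each row was compared between the groups in the fit across all genes (DESeq2, two-sided Wald test). Rows with fewer than 10 counts over the 6 libraries were left out, which kept 19 of the 37, both rRNAs, 11 mRNAs and 6 tRNAs. mt-Atp8, mt-Nd4l and 16 tRNAs were not tested. At an adjusted p under 0.05, 2 of the 19 rows were higher in DKO and 0 lower, against 2.9% of all 18606 rows in either direction and 1.02% higher. At an unadjusted p under 0.05 there were 7 of 19, all higher, against 12.2% of all rows in either direction and 4.92% higher. The normalized counts of 6 rows did not overlap between the groups, all higher in DKO, against 20.4% of all rows in either direction and 9.85% higher. Among these rows, mt-Nd3, mt-Co2 and mt-Tm held at most 23, 14 and 15 counts in any library.

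mt-Nd2 (ENSMUSG00000064345, chrM:3914-4951), a membrane subunit of complex I, stood at 6367, 7188 and 6990 normalized counts in the WT libraries, and at 9056, 8667 and 9026 in the DKO libraries. All DKO libraries lay above all WT libraries. The log2 fold change of 0.38, with an SE of 0.0857, had an adjusted p of 0.00136 in DESeq2, which stayed below 0.05 when any library was left out, with adjusted p-values from 0.000497 to 0.0311.

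mt-Nd1 (chrM:2751-3707), the subunit of complex I near its quinone site, stood at 18331, 20397 and 19195 normalized counts in the WT libraries, and at 22296, 26386 and 24511 in the DKO libraries, without overlap. The log2 fold change of 0.34, with an SE of 0.0950, had an adjusted p of 0.0195 in DESeq2. Without WT 1, WT 5, DKO 4 or DKO 5 the call was lost (DESeq2 adjusted p = 0.242, 0.191, 0.0765 or 0.145), while the log2 fold change was 0.30, 0.33, 0.28 or 0.34 and between 0.82% and 0.929% of all rows passed. Neither row passed with edgeR, where mt-Nd2 and mt-Nd1 had log2 fold changes of 0.38 and 0.34 (adjusted p = 0.160 and 0.200) and 10 rows of the whole table (0.0537%) passed. With limma-voom the values were 0.39 and 0.34 (adjusted p = 0.158 and 0.217), and 7 rows (0.0376%) passed.

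The other abundant rows had values of the same sign but did not pass. mt-Co1 had a log2 fold change of 0.35 (95% interval 0.10 to 0.61, DESeq2 adjusted p = 0.114), and DKO 4 at 151784 normalized counts lay above the other 5 libraries, which held 93320 to 124392. mt-Cytb, at 0.29 (0.07 to 0.51, adjusted p = 0.135), did not overlap between groups. The rRNAs had 0.30 (0.05 to 0.55) for mt-Rnr2 and 0.27 (-0.01 to 0.56) for mt-Rnr1, and mt-Nd6 had 0.33 (-0.04 to 0.69). mt-Nd5 and mt-Nd4 had the smallest values, 0.19 (-0.08 to 0.46) and 0.15 (-0.13 to 0.43). The 9 abundant rows had a median log2 fold change of 0.30 and a range of 0.15 to 0.38, while the median of all rows tested was 0.00.

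**Figure D4:**
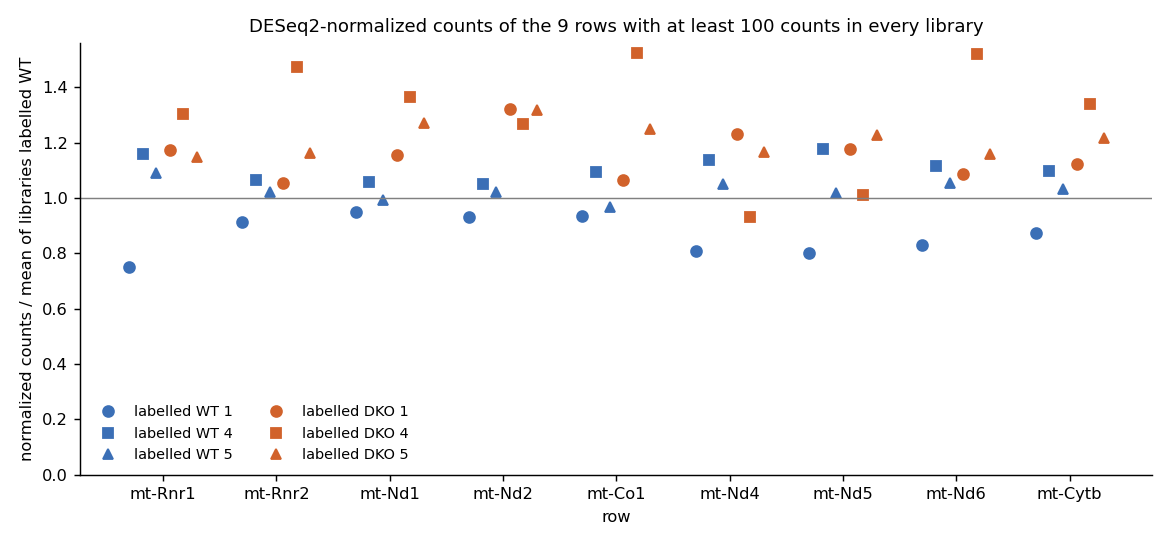
Normalized counts of the 9 abundant rows divided by the mean of the libraries labelled WT (vertical axis from 0), with a point for each library. WT 1 lies lowest in all 9 rows (0.751 to 0.949), and DKO 4 is highest in 6 of them but below 2 of the 3 WT libraries for mt-Nd4 (0.932) and mt-Nd5 (1.01).

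The rows inside the copied stretch gave uncertain values. mt-Co3, from the 6 to 62 counts given above, had a log2 fold change of 1.62 with an SE of 0.566 and an adjusted p of 0.0854 in DESeq2, and the groups overlapped. mt-Co2 had 3, 1 and 5 counts in WT and 6, 14 and 9 in DKO (adjusted p = 0.349), and mt-Nd3 13, 11 and 15 against 19, 23 and 19 (adjusted p = 0.569), both without overlap. Of the 6 tRNA rows tested, 4 had a log2 fold change above 0 and 2 below, and none passed. Their standard errors ran from 0.546 to 1.38 on the log2 scale, so no change of ordinary size was detectable at this depth.

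DKO 1 was the DKO library nearest to WT for several rows. Without it, 5 of the 19 rows passed the DESeq2 test, all higher in DKO, against 4.06% of all rows. They were mt-Nd2, mt-Nd1, mt-Co1 (log2 fold change 0.47, adjusted p = 0.00780), mt-Co3 (2.02, adjusted p = 0.0102) and mt-Rnr2 (0.40, adjusted p = 0.0489).

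How far the rows were higher depended on the scaling of the libraries. DESeq2 sets the median gene to no change. With total counts as size factors instead, the median of all rows moved by -0.23 on the log2 scale, and in DESeq2 0 of the 19 rows passed (1 at an unadjusted p under 0.05), against 7.9% of all rows. The values were then 0.15 for mt-Nd2, 0.10 for mt-Nd1, 0.11 for mt-Co1, 0.06 for mt-Rnr2 and 0.05 for mt-Rnr1, and those of mt-Nd4 and mt-Nd5 turned to -0.07 and -0.03. As a share of all counts, mt-Nd1 was 0.0780% ± 0.000600 in WT and 0.0835% ± 0.00154 in DKO (SD, n = 3). It was the only abundant row without overlap on that scale. There 4 of the 19 rows, mt-Nd1, mt-Nd3, mt-Co2 and mt-Tm, lay higher in DKO without overlap, against 1.9% of all rows in that direction. mt-Nd3, mt-Co2 and mt-Tm held at most 23, 14 and 15 counts in any library, and mt-Nd3 and mt-Co2 lie inside the copied stretch.

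Scaled to the summed mitochondrial mRNA counts, 0 of the 19 rows passed in DESeq2 (1 at an unadjusted p under 0.05), against 9.09% of all rows. mt-Co1 made up 57.3% to 64.3% of that sum, so this scale compares the other rows mainly with mt-Co1. Each mRNA row is also part of its own denominator, which draws its value towards 0. mt-Nd2 was then at 0.07 (SE 0.137), mt-Nd1 at 0.01 (SE 0.115), mt-Rnr2 at -0.04 (SE 0.116), mt-Rnr1 at -0.04 (SE 0.143) and mt-Nd4 at -0.14 (SE 0.174). On this scale the median of all rows moved by -0.32.

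**Figure D5:**
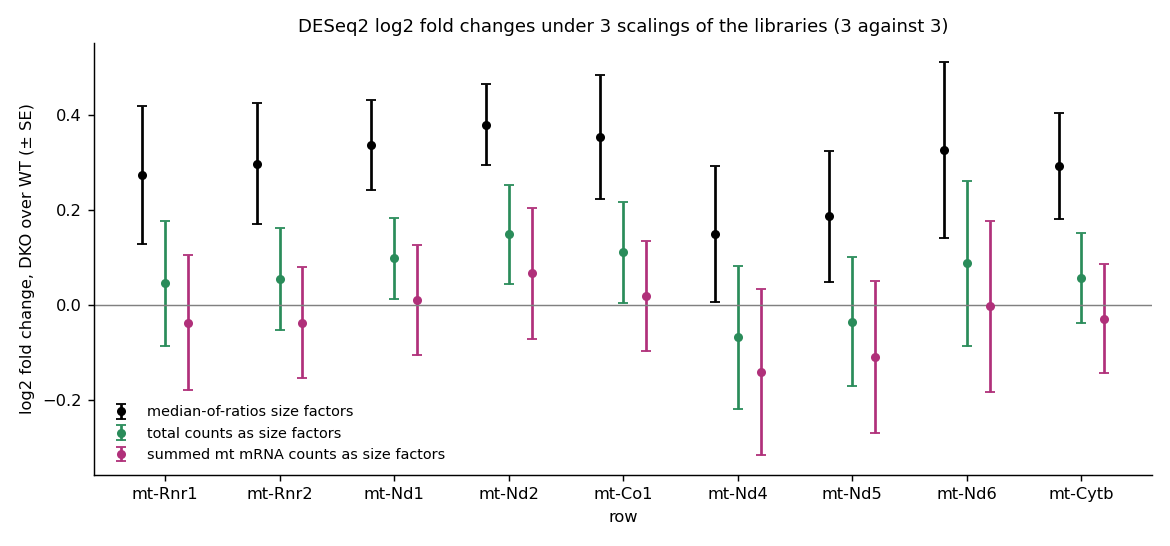
Log2 fold change of DKO over WT with its SE (vertical axis) for the 9 abundant rows under 3 scalings, DESeq2 size factors (black), total counts (green) and summed mitochondrial mRNA counts (magenta). With size factors all 9 points lie between 0.15 and 0.38, with total counts between -0.07 and 0.15, and with mitochondrial mRNA counts between -0.14 and 0.07.

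Within the mRNA pool, the rows of complex IV held 61.1%, 59.6% and 58.4% of the counts in WT and 57.4%, 64.3% and 59.9% in DKO, nearly all from mt-Co1. Complex I held 25.4%, 26.2% and 26.8% in WT and 28.3%, 22.2% and 26.3% in DKO, and complex III, mt-Cytb alone, 13.4% to 14.7%. The groups overlapped for each complex, and for complexes IV and I DKO 4 and DKO 1 formed the opposite ends.

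DKO 4 and WT 1 shared a pattern across rows, seen after the values were known. There were 22.7 counts of mt-Co1 for each count of mt-Nd4 in DKO 4 and 16.1 in WT 1, against 12.0 to 14.9 in the other 4 libraries. For mt-Co1 over mt-Nd5 the values were 14.8 and 11.4, against 8.87 to 9.98, and for mt-Cytb over mt-Nd5 they were 3.09 and 2.53, against 2.16 to 2.35. The same libraries had the highest ratios of mt-Rnr2 to mt-Rnr1. Most of 7 nuclear-retained RNAs were lowest in DKO 4, which WT 1 did not share. Rmrp (802 CPM in DKO 4, against 724 in WT 4 and 741 in DKO 5) and Meg3 were not lowest there. Malat1, a nuclear long noncoding RNA, stood at 4293 CPM in DKO 4 and 6521 CPM in WT 1, against 6306 to 7524 CPM elsewhere, and 7 such RNAs summed to 9949 CPM in DKO 4 and 14512 CPM in WT 1, against 12525 to 15620 CPM. Whether this bears on the ratios was not tested. Without these 2 libraries, 1 of the 19 rows passed the DESeq2 test, mt-Nd2 (log2 fold change 0.35, adjusted p = 0.0101), against 84 rows (0.472%) of the whole table.

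The nuclear copies themselves held few counts. By a rule of at least 90% identity over at least 50% of the copy, 16 annotated genes matched, of which 15 had a row in the table and 7 were tested. Their summed counts were 115, 133 and 183 in WT and 179, 310 and 248 in DKO. Gm28437, the copy of mt-Co3 on chromosome 1, held 56, 52 and 97 counts in WT and 84, 136 and 86 in DKO, more than the mt-Co3 row itself in every library. Of the 7 tested, 0 passed in DESeq2 and 3 had an unadjusted p under 0.05, Gm13340 (log2 fold change 1.05, adjusted p = 0.0868), Gm28437 (0.73, adjusted p = 0.217) and Gm13341 (1.08, adjusted p = 0.221). Gm13340, a copy of mt-Co1 on chromosome 2, held 36, 46 and 51 counts in WT and 47, 109 and 90 in DKO, and it passed without DKO 1 (adjusted p = 0.00104). Reads of mt-Co1 and of this copy could be exchanged over identical runs of up to 148 bases.

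The nuclear genes that copy, process and translate these RNAs did not pass the test. Of 144 listed genes, 143 were tested and 0 passed in DESeq2 or in edgeR, against 2.9% and 0.0537% of all rows. At an unadjusted p under 0.05 there were 10 in DESeq2, all higher in DKO, against 4.92% of all rows higher and 12.2% in either direction, and 20 in edgeR, against 15.0% in either direction. In DESeq2, 114 of the 143 (79.7%) had a log2 fold change above 0, against 50.2% of all rows, with a median of 0.13. By role, the median was 0.00 over 20 genes of transcription and replication, 0.15 over 28 of RNA processing and decay, 0.11 over 14 translation factors, 0.15 over 48 proteins of the large ribosomal subunit and 0.18 over 33 of the small subunit.

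Tsfm, a mitochondrial elongation factor, had 168 ± 5.59 normalized counts in WT and 240 ± 35.7 in DKO (SD, n = 3), a log2 fold change of 0.51 (DESeq2 adjusted p = 0.0902). Mrpl17, a protein of the large ribosomal subunit, had 288 ± 30.3 and 393 ± 42.3 (0.45, adjusted p = 0.0781). Both passed without DKO 1 (adjusted p = 0.0172 and 0.0292). Trmt10c, a subunit of the RNase P that frees the 5′ ends of mitochondrial tRNAs, had a log2 fold change of 0.32 (adjusted p = 0.428), Peo1, the mitochondrial DNA helicase, 0.27 (adjusted p = 0.437), and Fastkd5, which acts in the processing of mitochondrial mRNAs, -0.40 (adjusted p = 0.580). The coactivator Ppargc1a, which drives mitochondrial biogenesis, ranged from 879 to 1794 counts in WT and 1135 to 1860 in DKO.

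Of 42 nuclear subunits of the same complexes, 0 passed in DESeq2, against 2.9% of all rows, and 2 had an unadjusted p under 0.05, both higher, against 4.92% of all rows. All 42 had a log2 fold change above 0, with a median of 0.18. The highest was Atp5g1, a subunit of the proton-carrying ring of ATP synthase, with 1178, 1201 and 1129 counts in WT and 1326, 1855 and 1150 in DKO (log2 fold change 0.43, adjusted p = 0.123, and 0.0445 without DKO 1). With total counts as size factors, the medians fell to -0.06 for these subunits and -0.11 for the expression genes, beside -0.23 for all rows. The medians of both lists lay above that of all rows on either scale, as did that of the mitochondrial rows. A change of size factors moves all rows by nearly the same amount, so the second scale is no separate test of this. With total counts the medians of both lists lay below 0.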

How the data were processed

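Unstranded Nextera XT libraries of total RNA from 6 glands were sequenced by the authors on a HiSeq2500. The submitters' notes name STAR 2.5.2a, DESeq2, edgeR and limma and the builds GRCm38, mm10 and GRCh38, with no roles. The counting tool, the annotation, any RNA selection and the treatment of reads with several alignments are not given in the sources used here. The values used are raw counts by gene symbol, which the authors deposited without normalization in an unfiltered table. Their filtered count table served as an alternative, and a table of normalized values was not used.

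Shares and ratios were computed per library and not tested. Rows with at least 10 summed counts were fitted in DESeq2 1.42.0 (R 4.3.3, Wald test, median-of-ratios size factors, 0.867 to 1.12, default filters, Benjamini-Hochberg adjustment over all rows). Intervals of 95% are 1.96 SE on either side. The labels do not say whether each gland came from its own mouse, so p-values measure only the spread between these samples. Alternatives were edgeR 4.0.16, limma-voom 3.58.1, other scalings and filters, a replicate block and left-out libraries; leaving out WT 1 and DKO 4 together, and the denominators that keep Mucl1 or leave out 7 rows, were added after the values were seen.

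Positions are those of GENCODE M21 (GRCm38), matched by symbol for 39469 rows (91.2%). Nuclear copies were found with blastn 2.17.0 between transcripts. No genome sequence was read. The members and gene lists were chosen with earlier results of these data known. All mitochondrial rows could be named; of each other list, rows that passed and, in each direction, the 2 largest changes with a mean of at least 50 normalized counts, plus the 5 copies with most counts and up to 3 rows that fill the denominator. Malat1, Rmrp, Meg3, Hs3st3a1, Hs3st3b1 and Myh4 were named as checks.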

Additional observations from a re-analysis of the deposited data

How the results depend on the processing

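Of the 19 rows tested, 2 passed in DESeq2 and also with TMM factors, other count filters or the filtered table. With edgeR 0 passed (8 at an unadjusted p under 0.05), against 10 of all 18606 rows, with limma-voom 0 (7) against 7, with total counts 0 (1) against 1469, with mitochondrial mRNA counts as size factors 0 (1) against 1691, and without WT 1 and DKO 4 1 against 84. With each library left out in turn, 1 to 5 of the rows, 0 to 2 expression genes, 0 to 1 nuclear partners and 0 to 1 nuclear copies passed, each at its highest without DKO 1, against 149 to 817 of all rows (740 without DKO 1). The cause was not tested. With the replicate number as a block, 2 rows passed, and 343 rows of the whole table against 539. Deviations of same-numbered libraries had correlations of -0.133, -0.0244 and -0.259, and no library correlated best with its own number. Since deviations from a mean of 3 libraries are tied to each other, this check cannot decide whether the numbers mark pairs. The main fit did not pair the libraries.

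The share of DKO minus that of WT was 0.460 percentage points over all 37 rows, 1.48 without Spt1, 3.79 without 12 abundant nuclear rows, 2.24 without 11 of these with Mucl1 kept, 2.31 without the 7 in every library's top 10, 2.46 with TMM-scaled totals and -0.546 without WT 1 and DKO 4. For rRNA these were 0.417, 1.37, 3.53, 2.08, 2.14, 2.30 and -0.556, and for mRNA 0.0428, 0.112, 0.258, 0.165, 0.168, 0.161 and 0.00916. For tRNA, where 51 to 73 counts limit the precision, all but the last were 1.54e-05, 3.82e-05, 8.40e-05, 5.53e-05, 5.60e-05 and 5.21e-05. With TMM-scaled totals the mRNA share did not overlap between the groups (0.568% to 0.681% in WT, 0.689% to 0.882% in DKO), while the rRNA share and that of all 37 rows did. The tRNA share was higher in DKO without overlap with TMM-scaled totals, with Mucl1 kept or without the 7 rows. Without the 12 abundant nuclear rows, Mucl1 among them, the rRNA, mRNA and tRNA shares were each higher in DKO without overlap. With each library left out in turn, the difference ranged from -0.221 to 0.867 over all rows, -0.241 to 0.814 for rRNA, 0.01995 to 0.0560 for mRNA and 3.24e-06 to 2.78e-05 for tRNA. With the nuclear copies added to the rows, the ratios within a library still overlapped between the groups.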
